A study of Mus musculus with 6 samples.

Results

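The genes described here encode the proteins that join neighbouring epithelial cells: claudins and other tight junction proteins, cadherins, and connexins. They were chosen by name and not by their values, as the protein-coding rows of the deposited gene table whose symbols begin with Cldn, Cdh, Tjp, Gja, Gjb or Gjc followed by a digit, together with Ocln, Cgn, F11r, Jam2, Jam3, Marveld2 and Marveld3. The rule found 54 genes among 25416 in the table, of which 19 are claudins, 14 cadherins, 11 connexins, 6 other membrane proteins of the tight junction and 4 proteins of its cytoplasmic plaque. The cells were AML12, an established line of hepatocytes from a mouse that carried a transgene for human TGF alpha. They were given either a scrambled RNA (siNC, n = 3) or an siRNA against Setdb1 (siSetdb1, n = 3), at a stated amount of 50 that the label writes with the unit nm, and poly(A)-selected RNA was sequenced after 72 h. The transgene is common to both groups, so no sample is free of it. Setdb1 encodes a methyltransferase that marks lysine 9 of histone H3 for silencing. Whether the libraries within a group stem from different cultures is not said in the labels, and p-values therefore measure the spread between these libraries, which may be technical.

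Tight junctions seal the space between epithelial cells. Claudins and the junctional adhesion molecules (JAMs) span the membrane there, and the ZO proteins, encoded by Tjp genes, tie them to actin. In liver they close off the bile canaliculus from the blood side. Cadherins hold cells together in adherens junctions through calcium-dependent binding, with catenins on their inner face. Connexins assemble into gap junction channels that let small molecules and ions pass from one cell to the next, and the products of Gjb1 and Gjb2 are the main connexins of the adult hepatocyte.

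Values are FPKM, reads scaled by exon length and by library size, so levels can be compared between genes. In bulk RNA, fewer cells that express a gene and less of its RNA per cell cannot be told apart. Libraries held 16790582 to 17835061 reads. Setdb1 was at 8.41, 8.54 and 9.43 FPKM in siNC and at 4.29, 4.21 and 3.29 FPKM in siSetdb1, and its mean fell by 55.3% (adjusted p = 0.00183, limma). siNC replicate 1 stood apart from the other siNC libraries on the first principal component over all tested genes, at -26.7 against -11.7 and -10.8. Fits without it are given for F11r, Tjp1, Gjb1 and Snai1 and for the counts of genes passing. Of 10 hepatocyte markers 8 passed the filter on low values, led by the keratin genes Krt18 and Krt8, while Asgr1 and Serpina1a did not. The summed hepatocyte markers, nearly all of it Krt18 and Krt8, were at 2834 to 3238 FPKM in siNC and 3364 to 3482 FPKM in siSetdb1. Of the 8 tested, Krt18 rose, the plasma protein genes Trf and Ttr fell and 5 did not pass, with a median log2 fold change of -0.72. Of all genes tested 15.1% passed, with a median of -0.02. Trf fell from 23.8 ± 4.2 to 8.67 ± 2.88 FPKM and Ttr from 27.5 ± 10.5 to 7.02 ± 4.69 FPKM. Alb (7.93 and 2.61 FPKM), Apoa1 (22.9 and 8.38 FPKM) and Hnf4a (34.7 and 29.8 FPKM) did not pass. Neither did Apob (7.83 and 10.3 FPKM) and Krt8 (1266.5 and 1359.1 FPKM), whose means were higher in siSetdb1. All 5 biliary markers in the table passed the filter, summing to 1650 to 1837 FPKM in siNC and 1636 to 1817 FPKM in siSetdb1. Of these Sox9 rose from 4.95 to 9.26 FPKM, Krt7 rose from 154 to 218 FPKM and Spp1 fell from 220 to 115 FPKM. The part of these markers in the junction results was not tested. The 7 endothelial markers, 2 of which (Cdh5 and Cldn5) are junction genes of the rule, summed to at most 0.233 FPKM in any library. Fibroblast markers summed to 0.690 to 0.721 FPKM in siNC and 0.840 to 1.22 FPKM in siSetdb1. Only Des among them was above the filter, and it did not pass. The 4 leukocyte markers in the table summed to 4.75 to 6.64 FPKM in siNC and 2.39 to 3.17 FPKM in siSetdb1, nearly all of it Cd68.

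In the knockdown libraries the adhesion molecule genes Jam2 and F11r rose, and the claudin gene Cldn2 and the connexin gene Gjb1 fell. Among the junction genes that passed, Jam2 had the largest change, to 2.88 times its siNC mean. Of the 54 junction genes, 22 reached 0.5 FPKM in at least 3 libraries and were tested, and 32 did not. Of the 22, 3 rose, 2 fell and 17 did not pass (limma on log2(FPKM + 1), Benjamini-Hochberg adjusted p under 0.05 over all 12846 genes tested). Among all genes tested 15.1% passed, 6.87% upward and 8.27% downward, so the 5 of 22 (22.7%) is not a result about junction genes as a class. The median log2 fold change was 0.06 over the 22 genes and -0.02 over all genes tested. Values of the groups did not overlap for 10 of the 22 genes, 7 higher and 3 lower in siSetdb1, against 39.2% of all genes tested, 17.6% higher and 21.6% lower.

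**Figure D1:**
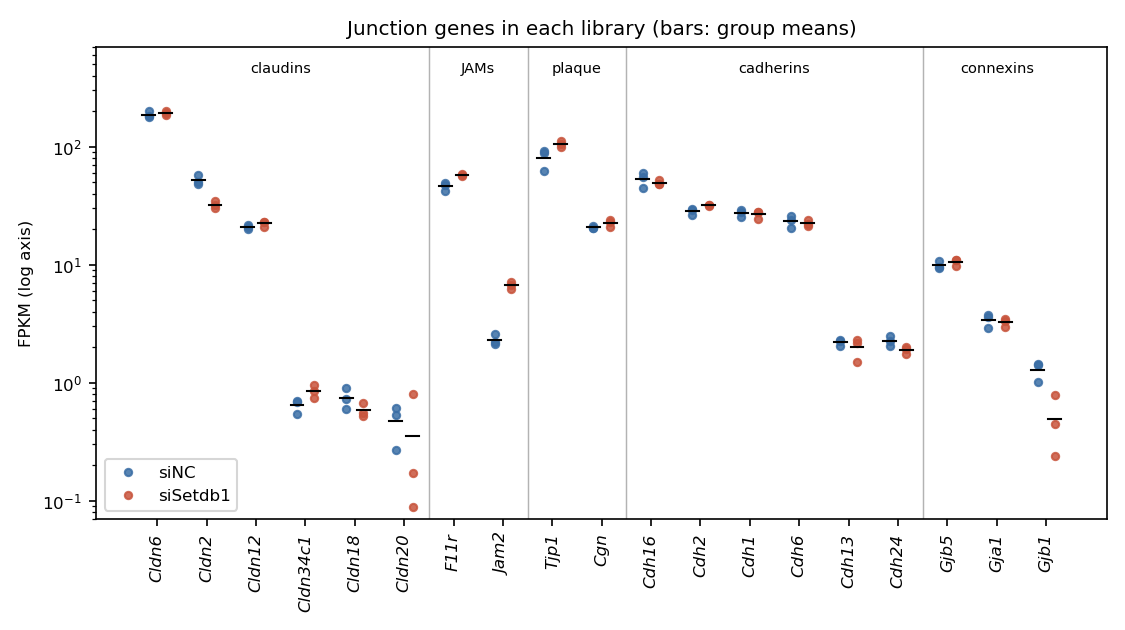
FPKM on a log axis for 19 tested junction genes, by family, with 1 point per library (3 siNC in blue, 3 siSetdb1 in red) and a bar at each group mean. Cldn6 was the highest in both groups. The groups are apart for Jam2, Cldn2, F11r and Gjb1, and also for Tjp1, Cdh2, Cdh24 and Cldn34c1, which did not pass.

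Levels were also summed within families, of which 3 are given here, and the JAM family was not the only one whose groups separated. Summed over the 6 JAM, occludin and MARVEL-domain genes, the level was 49.2 ± 3.8 FPKM in siNC and 65.1 ± 1.0 FPKM in siSetdb1 (SD, n = 3 each), with no overlap between the groups. The cadherin sums, 138 ± 3 and 135 ± 4 FPKM, and the claudin sums, 262 ± 16 and 251 ± 7 FPKM, overlapped. These sums are descriptions without a test, and 1 gene can carry most of a sum: F11r made up 94.3% of the JAM and MARVEL sum in siNC, and Cldn6 71.2% of the claudin sum.

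Among claudins, AML12 cells carried chiefly Cldn6, a claudin typical of embryonic epithelia. Its level was 199, 182 and 178 FPKM in siNC and 193, 201 and 187 FPKM in siSetdb1, the highest of all 54 junction genes. These ranges overlap, and the log2 fold change of 0.06 had a 95% interval of -0.11 to 0.22. Cldn2, which forms a pore for cations and water, was next. It had 57.1, 50.3 and 47.8 FPKM in siNC and 32.2, 30.0 and 34.6 FPKM in siSetdb1. Each siSetdb1 library lay below each siNC library, and the mean fell by 37.7% (log2 fold change -0.66, SE 0.09, adjusted p = 0.00459, limma). Its share of the claudin sum went from 19.8% to 12.8%. Cldn2 passed under all 14 alternative settings, with log2 fold changes from -0.72 to -0.59.

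Cldn2 (ENSMUSG00000047230) lies on the X chromosome at 139800828 to 139811386 of mm10, plus strand. Its promoter is shown because it was the only claudin past the test. The sequence is from RefSeq on GRCm38.p6, the assembly of mm10, at chrX:139800558-139800807, plus strand, and ends just before the RefSeq start; annotated exons were left out of this and the later windows.
Cldn2 promoter: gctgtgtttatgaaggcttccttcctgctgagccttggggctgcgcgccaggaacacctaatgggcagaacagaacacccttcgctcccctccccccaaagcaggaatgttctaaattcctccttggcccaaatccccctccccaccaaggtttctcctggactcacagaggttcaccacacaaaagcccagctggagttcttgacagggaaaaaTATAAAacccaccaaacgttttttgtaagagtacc
Capitals mark matches to 4 motifs searched on both strands: the TATA box TATAAA, the AP-1 element TGANTCA, the E-box CAGGTG bound by SNAIL and ZEB repressors, and the GC box GGGCGG. The search found 1 match here, a TATA box beginning 35 bases before the start, and 12.4% of 32851 RefSeq windows of 250 bases hold one. A match is a description of these letters, not a sign of binding.

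The other tested claudins did not pass. Cldn12, a claudin linked to calcium transport, had 20.9 ± 0.7 FPKM in siNC and 22.3 ± 1.2 FPKM in siSetdb1 (adjusted p = 0.392, limma). Cldn18 and Cldn20 were low, at 0.745 ± 0.151 and 0.470 ± 0.177 FPKM in siNC and 0.585 ± 0.080 and 0.352 ± 0.389 FPKM in siSetdb1. Cldn18 had 40 to 70 reads per library and Cldn20 had 1 to 9. Cldn34c1 had 0.644 ± 0.089 and 0.849 ± 0.10 FPKM, with no overlap between the groups. It belongs to a set of similar X-linked copies between which short reads may be split, and its adjusted p was 0.27. Thus 1 of 6 tested claudins (16.7%) fell and 5 did not pass. This is near the 15.1% of all genes tested that passed, so it is not a result about claudins as a class.

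Both tested JAM genes rose, where 6.87% of all genes tested did. They were the only 2 tested of the 6 JAM, occludin and MARVEL-domain genes, so this is not a result about that class. Jam2 encodes JAM-B, an immunoglobulin-type adhesion protein best known from endothelial contacts. It was at 2.2, 2.13 and 2.60 FPKM in siNC and at 6.72, 7.07 and 6.19 FPKM in siSetdb1, from 223 to 270 reads per siNC library and 667 to 730 per siSetdb1 library. The groups were far apart, with a log2 fold change of 1.21 (SE 0.09, 95% interval 1.01 to 1.42, adjusted p = 0.000882, limma). With limma-voom on reads recovered from the FPKM values, which adds no pseudocount of 1 FPKM, the log2 fold change was 1.53. Jam2 (ENSMUSG00000053062) lies on chromosome 16 at 84774123 to 84825928, plus strand, and passed under all 14 alternatives. All 7 endothelial markers were below the filter, and their sums were 0.0553 to 0.122 FPKM in siNC and 0.118 to 0.233 FPKM in siSetdb1. One of them, Cdh5, had 10 reads in siNC and 29 in siSetdb1, with no overlap and a ratio of 2.85 (95% interval 1.35 to 6.57). Mean levels of Stab2 were 0.0044 FPKM in siNC and 0.0088 FPKM in siSetdb1, and those of Cldn5 were 0 and 0.013 FPKM. Kdr was at 0.0065 and 0.0064 FPKM. Pecam1, Tek and Tie1 had siNC means of only 0.0031, 0.021 and 0.0039 FPKM and were at 0 in every siSetdb1 library. The part of endothelial RNA in the Jam2 result was not tested.

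F11r, the gene of JAM-A, an adhesion protein of epithelial tight junctions, was much more abundant and moved less. It had 49.5, 42.2 and 47.4 FPKM in siNC and 59.0, 56.6 and 57.9 FPKM in siSetdb1. All siSetdb1 values were above all siNC values, and the mean was 24.7% higher (log2 fold change 0.32, SE 0.08, adjusted p = 0.0328, limma). This call was lost in 5 of the 6 fits that left out 1 library, with adjusted p up to 0.123, and kept without siNC replicate 1 (adjusted p = 0.0148). The adjusted p was 0.0852 and 0.0591 without siNC replicates 2 and 3, and 0.123, 0.0946 and 0.0911 without siSetdb1 replicates 1, 2 and 3. F11r (ENSMUSG00000038235) lies on chromosome 1 at 171437535 to 171464603, plus strand, and its promoter is shown for comparison with that of Cldn2, from chr1:171437319-171437534, plus strand.
F11r promoter: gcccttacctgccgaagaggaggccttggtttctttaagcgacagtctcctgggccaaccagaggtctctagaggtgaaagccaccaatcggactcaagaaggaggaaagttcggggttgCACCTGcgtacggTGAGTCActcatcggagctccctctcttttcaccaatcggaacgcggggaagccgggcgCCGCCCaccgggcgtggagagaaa
These 216 bases hold an E-box on the minus strand, an AP-1 element and a GC box on the minus strand, which begin 122, 109 and 50 bases before the RefSeq start. Of all RefSeq windows of 250 bases, which are slightly longer than this one, 17.2%, 6.75% and 32.7% hold these motifs. F11r and Cldn2 share no match among the 4 motifs.

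Other membrane proteins of the tight junction were scarce, and Ocln, Marveld3, Jam3 and Tjp3 are named for their known roles, after their values were seen. Ocln, the gene of occludin, had at most 0.0817 FPKM in any library, from 10 reads over the 3 siNC libraries and 3 over the 3 siSetdb1 libraries. Marveld3 had at most 0.109 FPKM and Jam3 at most 0.0728 FPKM, and 36.2% of the exon length of Jam3 is shared with an antisense gene. Marveld2, the gene of tricellulin, had 55 reads in siNC and 80 in siSetdb1. Its ratio of 1.43 had a 95% interval of 1.00 to 2.06, which, like the other intervals on read ratios, is exact and covers counting error only.

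In the plaque, none of the 3 tested genes passed, where 15.1% of all genes tested did. Tjp1, the gene of the scaffold ZO-1, had 61.7, 91.5 and 88.2 FPKM in siNC and 112, 105 and 99.9 FPKM in siSetdb1. siNC replicate 1 was far below the other siNC libraries, and all siSetdb1 libraries were above all siNC libraries. The log2 fold change was 0.40 (95% interval 0.06 to 0.75, adjusted p = 0.105, limma), and without siNC replicate 1 it was 0.23 (adjusted p = 0.0597). Cgn, the gene of cingulin, which links ZO proteins to actomyosin, had 20.7 ± 0.4 and 22.7 ± 1.6 FPKM. Its ranges overlapped, with a log2 fold change of 0.13 (-0.04 to 0.30). Tjp3 was below the filter, at no more than 0.0641 FPKM.

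**Figure D2:**
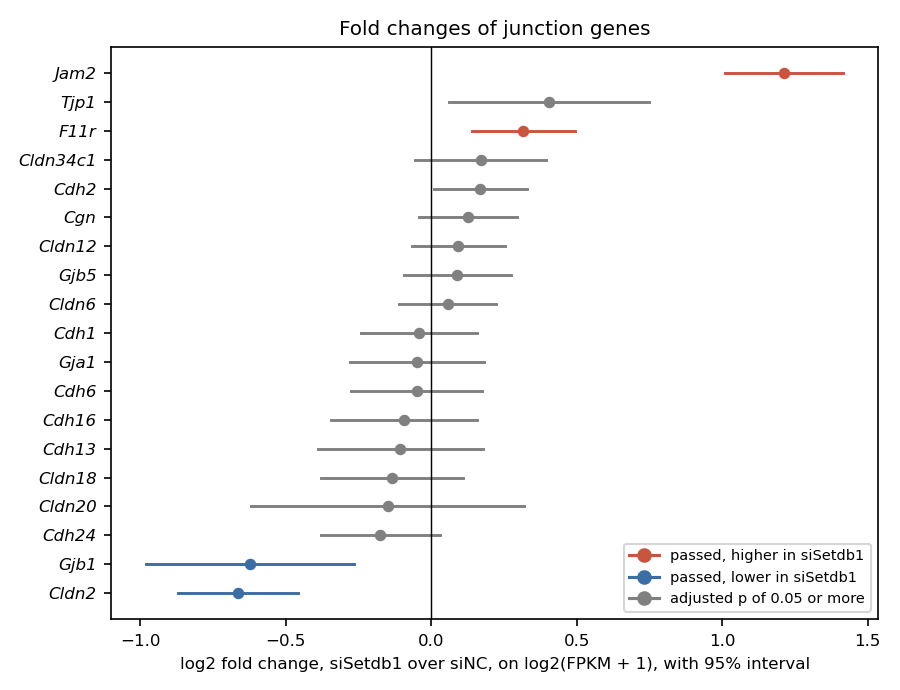
Log2 fold changes (siSetdb1 relative to siNC, from log2(FPKM + 1) values) of 19 tested junction genes, with 95% intervals from limma. Jam2 and F11r (red) lie above 0 and Gjb1 and Cldn2 (blue) below it, with genes that did not pass in grey.

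No cadherin passed, and 6 of 14 were tested. Since 15.1% of all genes tested passed, this is not a result about cadherins as a class. Cdh16, the kidney-type cadherin also called Ksp-cadherin, was the most abundant, at 59.9, 44.8 and 55.1 FPKM in siNC and 48.5, 48.3 and 51.8 FPKM in siSetdb1. The siSetdb1 values lay within the siNC range. The epithelial cadherin gene Cdh1 (E-cadherin) had 27.6 ± 2.0 and 26.8 ± 2.1 FPKM, and the 95% interval of its log2 fold change was -0.24 to 0.16. The neural cadherin gene Cdh2 (N-cadherin), which hepatocytes express along with Cdh1, had 26.4, 29.7 and 29.0 FPKM in siNC and 32.3, 32.3 and 31.4 FPKM in siSetdb1. These groups did not overlap, but the log2 fold change of 0.17 (0.01 to 0.33) did not pass (adjusted p = 0.136, limma). In siNC the values of Cdh1 and Cdh2 overlapped, while in siSetdb1 every Cdh2 value was above every Cdh1 value (27.9, 24.3 and 28.1 FPKM). The mean of Cdh2 was already above that of Cdh1 in siNC (28.4 and 27.6 FPKM). This comparison of Cdh1 with Cdh2 was not planned and was not tested.

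The type II cadherin gene Cdh6 had 23.5 ± 2.8 and 22.5 ± 1.3 FPKM (log2 fold change -0.05, -0.28 to 0.17). Cdh24, also of type II, had 2.27 ± 0.21 and 1.89 ± 0.12 FPKM with no overlap (adjusted p = 0.214, limma). Cdh13, which encodes T-cadherin, a form anchored by a lipid tail, had 2.2 ± 0.15 and 1.99 ± 0.44 FPKM. Of the 6 tested cadherins the log2 fold changes ran from -0.18 to 0.17, so that no tested cadherin had a fitted change as large as that of any of the 5 junction genes that passed.

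Among connexins, Gjb1 fell. Gjb1 (ENSMUSG00000047797), which encodes connexin 32, lies on the X chromosome at 101376378 to 101385629, plus strand. It had 1.43, 1.01 and 1.4 FPKM in siNC and 0.237, 0.446 and 0.788 FPKM in siSetdb1. Its siSetdb1 values varied widely but stayed below those of siNC, and its mean fell by 61.7% (log2 fold change -0.62, SE 0.15, adjusted p = 0.035, limma).

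Gjb1 rested on few reads, 41, 30 and 41 in siNC and 7, 13 and 24 in siSetdb1. It met the filter through its 3 siNC libraries and 1 siSetdb1 library. On recovered reads with limma-voom its log2 fold change was -1.48, since the pseudocount compresses changes of low values. Its adjusted p was 0.0679 and 0.0792 without siNC replicates 1 and 3, and 0.112 and 0.108 without siSetdb1 replicates 1 and 2. The other hepatocyte connexin gene, Gjb2, singled out after its values were seen, had 1 read in siNC and 1 in siSetdb1, so no direction can be given.

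Gjb5, another connexin gene of the beta class, had 10.7, 9.38 and 9.57 FPKM in siNC and 9.82, 11 and 10.9 FPKM in siSetdb1, with overlap and a log2 fold change of 0.09 (-0.09 to 0.27). Gja4 had 2 to 8 reads per library. Gja1, the gene of connexin 43, had 3.4 ± 0.43 FPKM in siNC and 3.24 ± 0.27 FPKM in siSetdb1 (log2 fold change -0.05, -0.28 to 0.18).

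**Figure D3:**
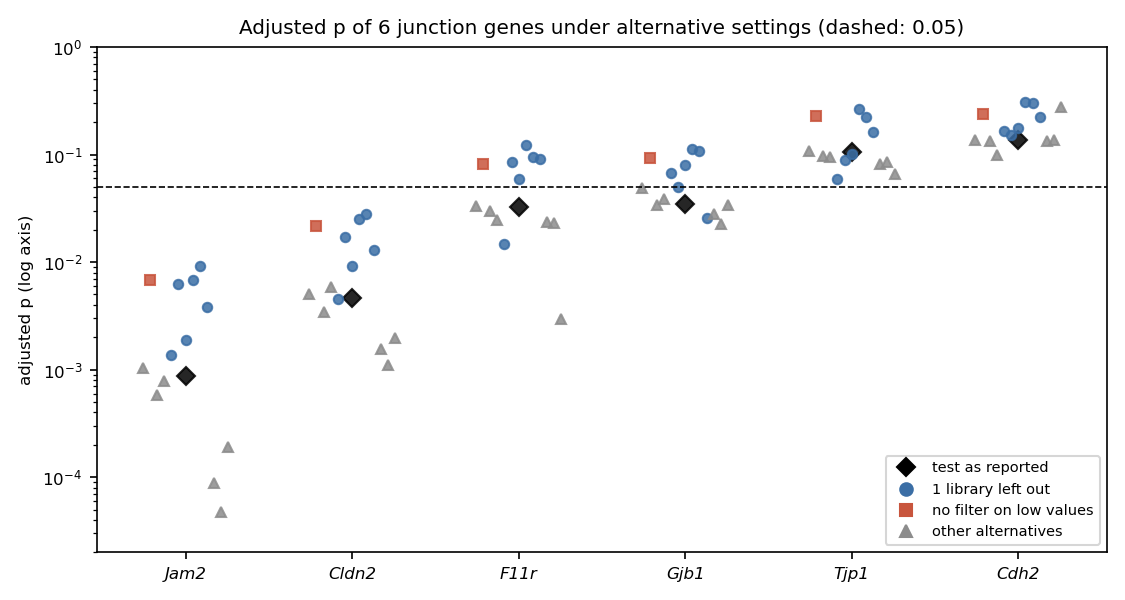
Adjusted p on a log axis for 6 junction genes as reported (black), with 1 library left out (blue), with no filter on low values (red) and under the other alternatives (grey). Jam2 and Cldn2 stay under 0.05 throughout, F11r and Gjb1 lie on both sides, and Tjp1 and Cdh2 stay above it.

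Counts of junction genes passing depended on the setting, as did the background. Leaving out siNC replicate 1, 2 or 3, 4, 2 and 2 rose, where 8.57%, 3.78% and 5.0% of all genes did, and 1, 2 and 1 fell, where 8.37%, 4.47% and 5.92% did. Leaving out siSetdb1 replicate 1, 2 or 3, 3, 2 and 2 rose, where 2.83%, 2.76% and 3.56% of all genes did, and 1, 1 and 2 fell, where 2.54%, 2.55% and 4.06% did. With no filter, 2 rose and 1 fell of 54, against 1.81% and 1.69% of all genes. With GC and length trends removed, 5 rose and 2 fell, against 11.2% and 10.8% (22.0% in all). The same 5 genes passed with a pseudocount of 0.1, a filter at 1 FPKM and median-ratio scaling, where 14.9%, 16.9% and 15.0% of all genes passed. They also passed with the variance trend on recovered reads and with limma-voom, where 17.6% and 17.9% of all genes passed.

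Below the filter lay 32 junction genes, 20 of them under 0.1 FPKM in every library. Cldn4, the gene of a barrier claudin, had 4, 0 and 2 reads under siNC, and 16, 26 and 14 under siSetdb1. The groups did not overlap, and the ratio of depth-scaled reads was 9.19 (95% interval 3.97 to 26.1). Cdh17, the gene of the liver-intestine cadherin, had 25, 42 and 43 reads in siNC and 5, 12 and 11 in siSetdb1, a ratio of 0.251 (0.159 to 0.382). With no filter, where 3.5% of all genes passed, the adjusted p was 0.0524 for Cldn4 and 0.0691 for Cdh17 (limma), and neither passed. Cldn9, which lies 137 bases from Cldn6, had 23 and 32 reads in all, Cldn15 13 and 17, and Gja4 15 and 10. Cldn34c4, Cdh5, Cldn1, Cldn5 and Cldn7 were singled out after their values were seen. Cldn34c4 had 6 reads in siNC and 0 in siSetdb1, and Cdh5 had 10 and 29. Cldn1, a main claudin of adult liver, had 1 read in all 6 libraries together, and Cldn5 and Cldn7 had 1 and 8.

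**Figure D4:**
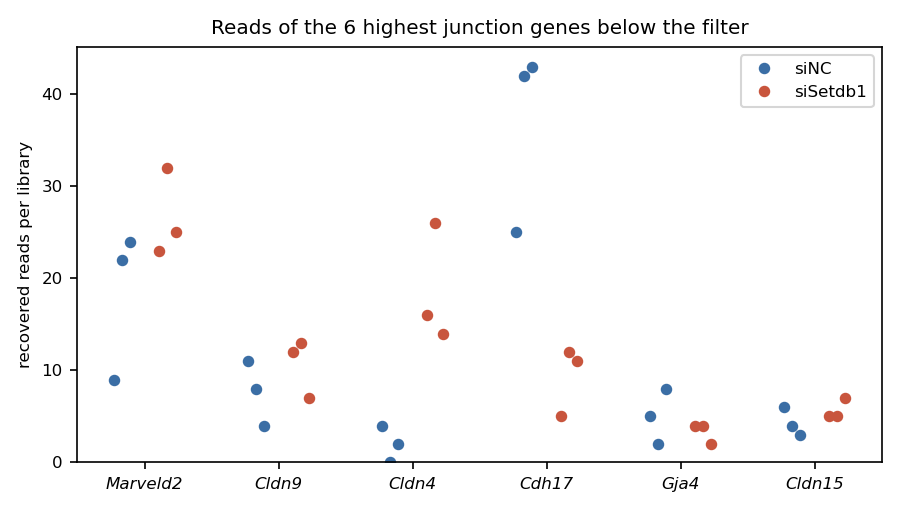
Recovered reads per library (linear axis) of the 6 junction genes with the highest mean FPKM below the filter, 3 siNC libraries in blue and 3 siSetdb1 libraries in red. Cldn4 had 0 to 4 reads in siNC and 14 to 26 in siSetdb1, Cdh17 25 to 43 and 5 to 12, and the other 4 genes overlapped between the groups.

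Further genes of the same junctions were read against the 15.1% of all genes that passed. Of 16 tested catenin and nectin genes, 1 rose, 2 fell and 13 did not pass (median log2 fold change 0.10). Nectin2, the gene of an adhesion receptor that starts adherens junctions, fell from 12.8 ± 1.4 to 7.99 ± 0.74 FPKM (adjusted p = 0.0081, limma). Afdn, the gene of afadin, which joins nectins to actin, fell from 25.7 ± 1.9 to 20.7 ± 1.3 FPKM, and Pvr, a nectin-like receptor gene, rose from 13.5 ± 1.2 to 16.9 ± 0.3 FPKM. Afdn passed in 1 and Pvr in 2 of the 6 fits with 1 library left out, with adjusted p up to 0.145 and 0.129.

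Of 28 tested genes of tight junction scaffolds and cell polarity, 3 rose, 2 fell and 23 did not pass (median 0.06). Pard6b, a polarity adaptor of the PAR complex, went up from 11.8 ± 1.7 FPKM to 20.2 ± 1.8 FPKM (adjusted p = 0.00716, limma; log2 fold change 0.73), while its paralog Pard6a fell from 5.44 ± 0.47 to 3.73 ± 0.26 FPKM. Amotl1, an angiomotin-family gene, rose from 9.48 ± 0.29 to 13.3 ± 0.4 FPKM, and Cgnl1, the gene of paracingulin, rose from 36.4 ± 2.0 to 48.1 ± 2.1 FPKM. Amotl2, of the family of Amotl1, fell from 39.5 ± 2.3 to 30.1 ± 2.4 FPKM (adjusted p = 0.0221, limma). Its call was lost when siNC replicate 3 was left out (adjusted p = 0.0565), and likewise for siSetdb1 replicate 2 (0.0787) or 3 (0.0722). Pard6a and Cgnl1 each lost the call without siSetdb1 replicate 1 and without siSetdb1 replicate 2, with adjusted p up to 0.0668 and 0.0639. The pannexin and remaining connexin list had 4 genes in the table and none above the filter.

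Of 12 tested regulators of epithelial and mesenchymal state, 1 rose, none fell and 11 did not pass (median 0.04). Of all genes tested 6.87% rose and 8.27% fell (median -0.02), so this is not a result about these regulators as a class. Snai1, which encodes a repressor of Cdh1, had 2.28, 1.60 and 1.58 FPKM in siNC and 2.93, 3.00 and 2.91 FPKM in siSetdb1 (log2 fold change 0.49, adjusted p = 0.0261, limma). The groups did not overlap, but the call held in 1 of the 6 fits with 1 library left out, that without siNC replicate 1, and the adjusted p reached 0.0919 in the others.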

How the data were processed

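The values the authors deposited are taken as FPKM, since they are whole multiples of 1 read over the GENCODE M21 exon length (GRCm38) and 1 total per sample. Whole reads, within 0.01, came out for 98.8% of 25372 genes with a length. The submitters' processing notes name HISAT2 2.0.4, Bowtie2 2.2.5, RSEM 1.2.12, DESeq2 1.4.5 and mm10 with no role, and no strand marking is stated. Samples were grouped by title. The 12846 genes that reached 0.5 FPKM in at least 3 libraries entered limma 3.58.1 (R 4.3.3) as log2(FPKM + 1) (intensity-dependent, robust prior variance, group as the only term, two-sided, Benjamini-Hochberg threshold 0.05). The log2(FPKM + 1) scale understates the change of low genes. Tested on simulated data for this comparison (5 runs, 200 changed genes, a median of 12829 genes), the fit found 4.8% of genes changed 1.25-fold, 54.8% at 1.5-fold, 96% at 2-fold and 98.8% at 4-fold, while 12.8% of calls were false, above the nominal share, against 4.45% with the variance trend on recovered reads. The simulation gave every gene the same dispersion and held no outlying library. In the data 15.1% of genes passed, a larger share than that of the 200 changed genes. The simulated rates may therefore not hold for these data. Depth was 16790582 to 17835061 recovered reads per library. Within each group, every pair of libraries exceeded sampling noise, with a chi-square of 5.28 to 27.9 times its degrees of freedom. Junction genes above the filter are named, with all libraries' values where they passed. Below the filter the 6 with the highest mean are named, and up to 4 passing genes per further list, by size of change, with Amotl2 added after its values were seen. The junction genes, lists and tests were chosen with earlier results of these data known. Some genes of these lists stand in the counts and are not reported here by name. The DESeq2 alternative planned for counts was not run, because the values are FPKM.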

Additional observations from a re-analysis of the deposited data

How the results depend on the processing

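Jam2 and Cldn2 kept their direction and stayed past the threshold under all 14 alternatives. Of the junction genes, 3 rose and 2 fell as reported. With trends of GC content and exon length removed 5 rose, Gjb5 among them, and 1 fell with no filter on low values. Leaving out 1 library in turn, 2 to 4 rose and 1 to 2 fell. Replicate numbers did not pair the samples: deviations of same-numbered libraries correlated at -0.16, 0.17 and -0.17, and not every library correlated best with its own number. With the replicate number as a block, 1 junction gene fell and 2 rose, and of all genes 480 rose and 535 fell, against 883 and 1062 without it. With no filter 460 rose and 430 fell, with GC and length trends removed 1436 rose, and with 1 library left out 355 to 1101 rose and 326 to 1075 fell. Of catenin and nectin genes, 0 rose and 1 fell with no filter or with the block, 2 rose and 1 fell with median-ratio scaling, 3 rose with GC and length trends removed, and 0 to 4 rose and 1 to 2 fell with 1 library left out. Of scaffold and polarity genes, 1 fell with no filter, 0 fell with the block, 5 rose and 4 fell with GC and length trends removed, and 2 to 5 rose and 0 to 2 fell with 1 library left out. Of epithelial-mesenchymal regulators, 0 rose with no filter or with the block, 4 rose and 1 fell with GC and length trends removed, and 0 to 2 rose with 1 library left out. Without siNC replicate 1, 4 catenin and nectin genes, 5 scaffold and polarity genes and 2 regulators rose, against 1, 3 and 1 as reported. Of all genes tested 8.57% rose in that fit, against 6.87% as reported. The cause of these shifts was not tested. Genes near 0 changed sign without passing: Cdh1 (0.0086) and Cldn34c1 (-0.020) with GC and length trends removed, and, with 1 library left out, Cdh1 (-0.10 to 0.022), Cdh13 (-0.18 to 0.020), Cdh6 (-0.14 to 0.024) and Gja1 (-0.13 to 0.0033). Depth limits the genes below the filter, and Cldn20 and Gjb1 above it, to few reads per library.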
